A study of Mus musculus with 6 samples.

Results

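The tumor necrosis factor (TNF) superfamily and the regulators of the transcription factor NF-kB were followed in mouse liver. Members were taken from the deposited count table by name. They were all symbols of the forms Tnfsf, Tnfrsf and Traf followed by a number, and Tnf, Fas, Fasl, Tnfaip3, Nfkb1, Nfkb2, Rel, Rela, Relb, Nfkbia, Nfkbib, Nfkbie, Nfkbiz and Bcl3. This gave 52 of the 35976 genes in the table, and 41 of them had 10 or more counts in 3 or more libraries. Those 41 were 6 ligands, 17 receptors, 7 TRAF adaptors, 5 NF-kB subunits and 6 NF-kB inhibitors and IkB proteins. None of the 41 reached the count limit in 1 genotype only.

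The samples were livers of male mice given HFD, the usual abbreviation of high-fat diet, and collected after 16 hours without food and 4 hours of refeeding. Poly(A) RNA was sequenced in 3 libraries of genotype IRE1fl and 3 of genotype IRE1PKO. What PKO stands for is not written out in the labels, which give neither the Cre driver nor the age of the mice. The series title names communication between pituitary and liver in obesity. Ern1 encodes IRE1, which senses unfolded proteins in the endoplasmic reticulum.

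Ligands of the TNF superfamily are mostly membrane-bound trimers that cluster their receptors. Many receptors without a death domain recruit TRAF adaptors, and death receptors can instead start caspase activation. In the canonical arm of NF-kB signalling, IkB proteins are degraded and dimers of Rela or Rel with the Nfkb1 product enter the nucleus. In the noncanonical arm, the Nfkb2 product is processed and acts with Relb. Several inhibitors, Tnfaip3 and Nfkbia among them, are themselves NF-kB targets and form feedback loops. In liver these pathways act in hepatocytes, macrophages, endothelial cells and stellate cells.

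Total counts ranged from 35776219 to 39277435 per library. Liver Ern1 had 61.2, 49.3 and 60.8 CPM, the scaled share of a library's counts, in IRE1fl and 45.7, 36.6 and 44.2 CPM in IRE1PKO, a log2 fold change of -0.44 (SE 0.11, edgeR adjusted p = 0.0357). Some markers of the cell types of liver changed between the genotypes. Over all tested genes 5.68% were called higher in IRE1PKO and 3.86% lower at an edgeR adjusted p under 0.05. Of 10 stellate and fibroblast markers, 7 rose, and their summed level was 228 to 265 CPM in IRE1fl and 427 to 458.5 CPM in IRE1PKO. Of 10 recruited macrophage markers 3 rose, with sums of 102 to 116 and 157 to 195 CPM, and of 10 sinusoidal endothelial markers 4 rose, with sums of 310 to 333 and 370 to 491 CPM. Of 10 Kupffer cell markers 1 rose and 2 fell, with sums of 611 to 773 and 514 to 635.5 CPM. C6 fell from a mean of 293 to 89.5 CPM and set the direction of that sum. The other 9 Kupffer cell markers summed to 326 to 449 CPM in IRE1fl and 394 to 556 CPM in IRE1PKO, and the list's median log2 fold change was 0.31. T and NK cell markers summed to 6.55 to 7.17 CPM in IRE1fl and 3.24 to 4.53 CPM in IRE1PKO, and 1 of 9 tested fell. Without Cd4 these sums overlapped, at 3.46 to 5.04 and 2.41 to 4.15 CPM. B and plasma cell markers summed to 9.22 to 14.0 and 6.26 to 8.29 CPM, with 1 of 7 lower. Without that marker, Jchain, they overlapped, at 4.99 to 5.5 and 4.62 to 5.75 CPM. Neutrophil markers summed to 3.9 to 12.4 and 4.13 to 5.89 CPM, with none of 3 tested called by edgeR, DESeq2 or limma-voom and 0 at an unadjusted p under 0.05. Cholangiocyte markers summed to 36.6 to 40.7 and 41.6 to 53.4 CPM, with 1 higher and 1 lower of 6 and a median log2 fold change of -0.21. The higher one was Spp1, which is also among the 3 recruited macrophage markers that rose, and the lower one was Sox9. Without Spp1 the cholangiocyte sums were 14.2 to 17.1 CPM in IRE1fl and 6.76 to 9.6 CPM in IRE1PKO, and those of the recruited macrophage markers were 76.3 to 96.5 and 115.7 to 151.5 CPM. Hepatocyte markers gave 99330 to 119200 and 94220 to 117400 CPM, with 2 of 10 lower, Cps1 and Serpina1a. Alb made up most of these sums, with means of 63170 CPM in IRE1fl and 64300 CPM in IRE1PKO. The list's median log2 fold change was -0.26. At an unadjusted p under 0.05, 5 of the 10 were lower and none higher, and DESeq2 called 5 lower and limma-voom 2. No listed marker was at 0 in all libraries. In whole liver, fewer cells of a type and less RNA per cell cannot be told apart, and the part of cell makeup in the results below was not tested.

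Of the 41 reported members, 7 were higher in IRE1PKO and none lower at an adjusted p of 0.05 (quasi-likelihood test of edgeR, p-values adjusted by Benjamini-Hochberg over 14954 genes). Among all tested genes 9.54% were called, 5.68% higher and 3.86% lower. The 7 were the receptors Tnfrsf19, Tnfrsf12a, Tnfrsf22 and Tnfrsf23, the subunits Relb and Nfkb2 of the noncanonical arm, and the inhibitor Tnfaip3. No ligand and no TRAF adaptor was called. At an unadjusted p under 0.05, 11 members were higher and 1 lower. DESeq2 called 7 higher and limma-voom 6, and both called none lower. The median log2 fold change of the 41 was 0.24, beside -0.0014 over all tested genes. Of the 41, 28 were above 0, as were 7441 of all 14954 tested genes. All IRE1PKO libraries lay above all IRE1fl libraries for 12 of the 41 and below them for 3, while among all tested genes these shares were 16.0% and 15.0%, or 31.0% in either direction.

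**Figure D1:**
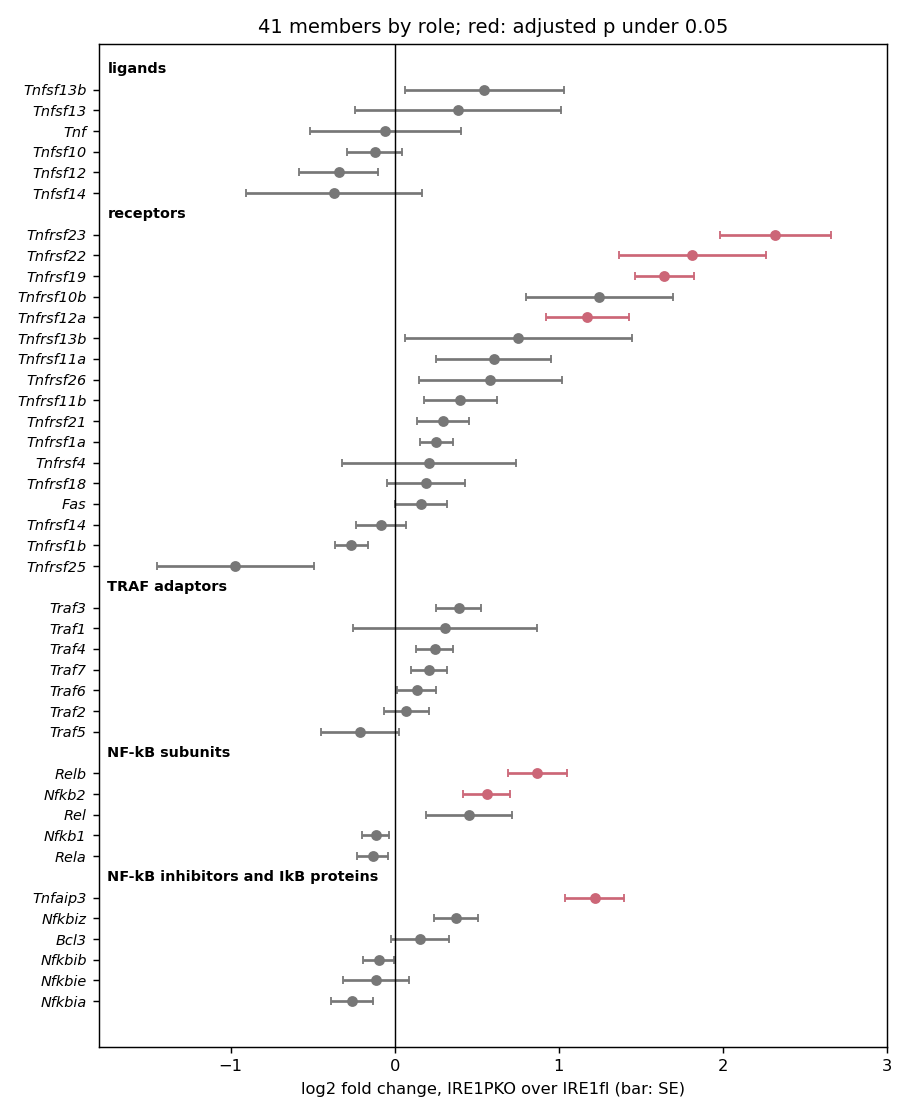
Log2 fold change of IRE1PKO over IRE1fl for the 41 reported members, grouped by role, with bars for the standard error; red points passed the test. The 7 red points lie right of 0, 4 of them among the receptors, and Tnfrsf23 is the farthest right at 2.32.

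The promoters of the members were searched for the kappaB consensus of 10 bases, on both strands, in the 250 bases before each start site of the RefSeq table for GRCm38.p6, the same build as mm10. Matches that overlapped were joined into 1 site. Of the 41 members, 33 had a window, and 7 of the 33 (21.2%) held a match in at least 1 window. Of 11152 tested genes with a window 10.4% held one, and of all 32851 windows 7.25% did. The members with a match were Tnfaip3 and Nfkb2, which rose, and Nfkbia, Nfkbie, Rel, Traf3 and Tnfrsf25, which did not pass the test. The stretches below are shown because they set promoters of a member that rose beside promoters of members that did not. Each ends at the base before an annotated start site, is written 5′ to 3′ on the strand of its gene and has the matches in capitals.
Tnfaip3, chr10:19015411-19015540, minus strand: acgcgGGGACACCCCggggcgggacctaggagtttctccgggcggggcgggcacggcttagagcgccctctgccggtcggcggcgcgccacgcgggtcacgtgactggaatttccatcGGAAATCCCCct
Nfkbia, chr12:55492648-55492777, minus strand: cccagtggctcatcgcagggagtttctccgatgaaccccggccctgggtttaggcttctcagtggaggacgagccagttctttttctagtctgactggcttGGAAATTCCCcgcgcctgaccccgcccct
Traf3, chr12:111166240-111166369, plus strand: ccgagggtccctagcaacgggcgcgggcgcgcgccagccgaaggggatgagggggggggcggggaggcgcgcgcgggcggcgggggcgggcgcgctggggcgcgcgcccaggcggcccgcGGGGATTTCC
Rel, chr11:23770970-23771099, minus strand: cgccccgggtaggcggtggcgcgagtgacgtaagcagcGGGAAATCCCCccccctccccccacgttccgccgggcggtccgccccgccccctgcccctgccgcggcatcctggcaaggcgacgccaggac

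Tnfaip3 held 2 sites in these 130 bases, and Nfkbia, Traf3 and Rel held 1 each. The Traf3 site, at 111166360 to 111166369, lies past the first RefSeq base of that gene at 111166321. It is therefore upstream of an annotated start site but inside the gene as RefSeq bounds it. The Nfkb2 window with 2 sites overlaps annotated exons of that gene, so only 30 bases around the first site are shown.
Nfkb2, chr19:46304688-46304717, plus strand: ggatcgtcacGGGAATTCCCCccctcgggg
The windows of Tnfrsf12a, Tnfrsf19 and Tnfrsf23, which rose, held no match to these letters. Tnfsf12, Nfkbiz, Relb, Nfkb1, Tnfrsf22, Tnfrsf10b, Tnfrsf26 and Tnfrsf11b had no window in the table.

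No ligand was called in either direction by edgeR, DESeq2 or limma-voom, and 0 of the 6 had an unadjusted p under 0.05. Tnf, the founding ligand, had 0.499, 0.454 and 0.431 CPM in IRE1fl and 0.359, 0.38 and 0.587 CPM in IRE1PKO. The groups overlapped for Tnf, and its log2 fold change was -0.06 (SE 0.46, edgeR adjusted p = 0.955). Its counts were 14 to 24 per library, so the SE allows a sizeable difference in either direction. Tnfsf10, the death ligand TRAIL, had 11.3, 11.0 and 15.8 CPM in IRE1fl and 10.2, 11.3 and 13.5 CPM in IRE1PKO, with a log2 fold change of -0.12 (SE 0.17, edgeR adjusted p = 0.698). The highest value was in IRE1fl 03, and the groups overlapped. Tnfsf13b, the B cell survival factor BAFF, had 0.277, 0.454 and 0.35 CPM in IRE1fl and 0.513, 0.38 and 0.684 CPM in IRE1PKO. The groups overlapped, with a log2 fold change of 0.55 (SE 0.48, edgeR adjusted p = 0.526). Tnfsf12, the ligand TWEAK, had a log2 fold change of -0.34, the B cell factor Tnfsf13 of 0.39 and the T cell costimulator Tnfsf14 of -0.37. Tnfsf12 and Tnfsf13 are neighbours on chromosome 11 that a readthrough gene joins, so the split of their reads is uncertain.

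Of the 17 receptors, 4 (23.5%) rose and none fell, beside 5.68% higher and 3.86% lower among all tested genes. At an unadjusted p under 0.05, 6 were higher and 1 lower, and DESeq2 and limma-voom called 4 and 3 higher and none lower. The receptor median was 0.40, and 14 of 17 values were above 0, as were 7441 of 14954 over all tested genes. Leaving out single libraries gave medians of 0.29 to 0.43.

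Tnfrsf19 (chromosome 14, 60963834 to 61046855) encodes TROY, a TRAF-binding receptor without a death domain. It had 6.48, 4.68 and 3.85 CPM in IRE1fl and 15.6, 15.0 and 16.2 CPM in IRE1PKO. The IRE1PKO values lay close together, and each exceeded the highest IRE1fl value. Tnfrsf19 rose 3.12-fold, a log2 fold change of 1.64 (SE 0.18, edgeR adjusted p = 4.6e-04). The call held without each library in turn, with adjusted p-values up to 0.00435.

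Tnfrsf12a (chromosome 17, 23675445 to 23677449) encodes the small receptor for TWEAK, which is known to be induced in injured and growing tissue. It had 4.63, 6.38 and 3.85 CPM in IRE1fl and 15.2, 8.93 and 9.39 CPM in IRE1PKO. IRE1PKO 01 stood above the other IRE1PKO libraries, and the groups did not overlap. Tnfrsf12a rose 2.26-fold, a log2 fold change of 1.17 (SE 0.25, edgeR adjusted p = 0.0185). The call was lost without IRE1fl 01, IRE1fl 03 or IRE1PKO 01 (edgeR adjusted p = 0.0541, 0.071 and 0.0599). Within a library, the count of Tnfrsf12a over that of its ligand gene Tnfsf12 was 1.03, 1.25 and 0.458 in IRE1fl and 3.2, 2.18 and 1.75 in IRE1PKO.

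Tnfrsf22 and Tnfrsf23 encode mouse decoy receptors that bind TRAIL without a death domain. They lie with their relative Tnfrsf26 on chromosome 7, at 143634808 to 143649675, 143665807 to 143686436 and 143607685 to 143627845. Tnfrsf23 had 0.72, 0.397 and 0.485 CPM in IRE1fl and 2.54, 2.12 and 3.37 CPM in IRE1PKO. Every IRE1PKO library was above every IRE1fl library. Tnfrsf23 rose 4.99-fold, a log2 fold change of 2.32 (SE 0.34, edgeR adjusted p = 0.00207), and the call held without each library in turn. Tnfrsf22 had 0.859, 0.567 and 0.323 CPM in IRE1fl and 2.23, 1.09 and 2.83 CPM in IRE1PKO. IRE1PKO 02 was the lowest of its group and still above the IRE1fl libraries. Tnfrsf22 rose 3.52-fold, a log2 fold change of 1.81 (SE 0.45, edgeR adjusted p = 0.0287). That call was lost without IRE1fl 02, IRE1fl 03, IRE1PKO 01 or IRE1PKO 03 (edgeR adjusted p = 0.0841, 0.0983, 0.103 and 0.094) and with limma-voom (adjusted p = 0.0635).

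The Tnfrsf22 and Tnfrsf23 transcripts resemble each other. Of all 50-base stretches of the GENCODE Tnfrsf22 transcripts, 17.3% also occurred in Tnfrsf23 transcripts, and 18.0% the other way round. The split of reads between this pair is therefore uncertain. Tnfrsf26 shared no 50-base stretch with either. Tnfrsf26 had 0.554, 0.454 and 0.809 CPM in IRE1fl and 1.31, 0.76 and 0.66 CPM in IRE1PKO, and the groups overlapped. Its log2 fold change was 0.58 (SE 0.43, edgeR adjusted p = 0.445).

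Tnfrsf10b, the death receptor for TRAIL in mice, had 0.332, 0.312 and 0.566 CPM in IRE1fl and 1.26, 0.651 and 0.978 CPM in IRE1PKO. The groups did not overlap, and the log2 fold change was 1.25 (SE 0.45), but it did not pass the test (edgeR adjusted p = 0.109). With 11 to 49 counts per library, its SE was as large as that of Tnfrsf22. A difference between the changes of the decoy receptors and of Tnfrsf10b was not tested.

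**Figure D2:**
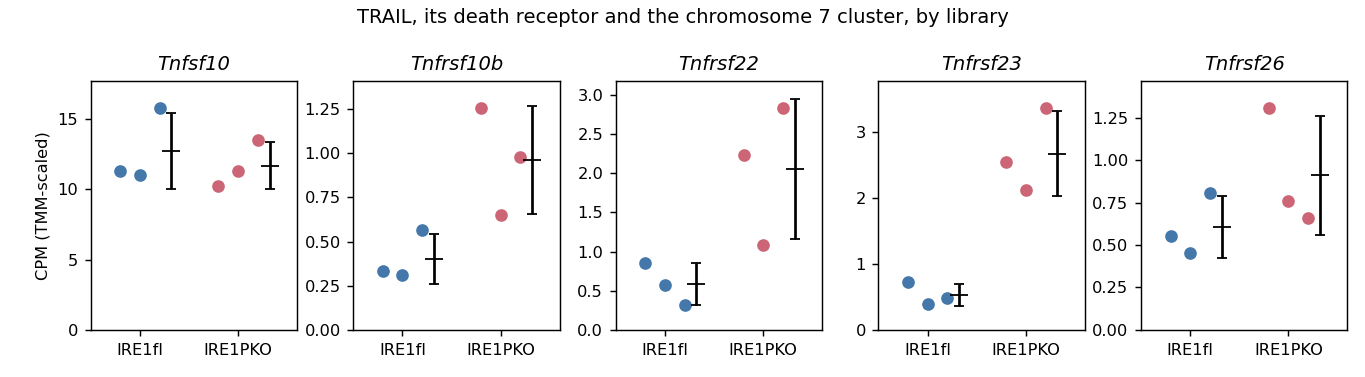
CPM of Tnfsf10, Tnfrsf10b, Tnfrsf22, Tnfrsf23 and Tnfrsf26 in the 3 IRE1fl (blue) and 3 IRE1PKO (red) libraries, in the order 01 to 03, with the mean and SD as black bars and axes from 0. The groups overlap for Tnfsf10 and Tnfrsf26 and do not for the other panels; Tnfrsf10b did not pass the test.

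The main TNF receptors did not pass. Tnfrsf1a, which carries a death domain and is broadly expressed, had 92.0, 84.6 and 104.9 CPM in IRE1fl and 117.9, 114.6 and 102.9 CPM in IRE1PKO. The groups overlapped through IRE1fl 03 and IRE1PKO 03. Its log2 fold change was 0.25 (SE 0.10, edgeR adjusted p = 0.144), and it was 0.33 with an adjusted p of 0.0489 when library totals were the only scaling. Tnfrsf1b, the receptor without a death domain, had 41.7, 45.2 and 45.9 CPM in IRE1fl and 32.9, 37.1 and 40.7 CPM in IRE1PKO. All IRE1PKO values were below all IRE1fl values, with a log2 fold change of -0.26 (SE 0.10, edgeR adjusted p = 0.12). The count of Tnfrsf1a over that of Tnfrsf1b in a library was 2.21, 1.87 and 2.28 in IRE1fl and 3.59, 3.09 and 2.53 in IRE1PKO. Fas, the receptor of Fas ligand, had 17.2, 13.0 and 13.9 CPM in IRE1fl and 19.0, 13.0 and 17.2 CPM in IRE1PKO, with a log2 fold change of 0.16 (SE 0.16, edgeR adjusted p = 0.576) and groups that overlapped.

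The other receptors that did not pass had log2 fold changes from -0.97 to 0.75. The lowest was Tnfrsf25, a death-domain receptor of lymphocytes, at -0.97 (SE 0.48) with 12 to 36 counts per library. The highest was the B cell receptor Tnfrsf13b at 0.75 (SE 0.69). Tnfrsf11a, the receptor RANK, had 0.60, and Tnfrsf11b, the soluble decoy osteoprotegerin, 0.40. Tnfrsf21, a death-domain receptor, had 0.29, the lymphocyte costimulators Tnfrsf4 and Tnfrsf18 had 0.21 and 0.19, and Tnfrsf14 had -0.08.

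None of the 7 TRAF adaptors was called by edgeR, DESeq2 or limma-voom, and 1 had an unadjusted p under 0.05. That was Traf3, which holds back the noncanonical arm, with 14.3, 16.9 and 13.4 CPM in IRE1fl and 19.9, 16.2 and 22.2 CPM in IRE1PKO. The groups overlapped, and the log2 fold change was 0.39 (SE 0.14, edgeR adjusted p = 0.105). The others ran from -0.21 for Traf5 to 0.31 for Traf1, with Traf4 at 0.24, Traf7 at 0.21, Traf6 at 0.13 and Traf2 at 0.07.

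Among the NF-kB subunits, the noncanonical pair rose. Relb (chromosome 7, 19606217 to 19629438) had 3.13, 3.01 and 3.45 CPM in IRE1fl and 5.93, 5.16 and 6.43 CPM in IRE1PKO. The groups were separate, and Relb rose 1.83-fold, a log2 fold change of 0.87 (SE 0.18, edgeR adjusted p = 0.0128). Leaving out IRE1PKO 01 ended the Relb call (edgeR adjusted p = 0.0564). Nfkb2 (chromosome 19, 46300994 to 46312400) had 11.9, 9.19 and 9.38 CPM in IRE1fl and 17.1, 14.3 and 13.7 CPM in IRE1PKO. The first library was the highest in both groups, and the groups did not overlap. Nfkb2 rose 1.47-fold, a log2 fold change of 0.56 (SE 0.14, edgeR adjusted p = 0.0341). Its call was lost without IRE1fl 02, IRE1fl 03, IRE1PKO 01 or IRE1PKO 02 (edgeR adjusted p = 0.11, 0.118, 0.141 and 0.0727).

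The canonical subunits did not pass. Rela, the main transactivating subunit, had 54.5, 60.6 and 54.5 CPM in IRE1fl and 56.8, 48.5 and 49.0 CPM in IRE1PKO, with overlapping groups and a log2 fold change of -0.14 (SE 0.09, edgeR adjusted p = 0.404). Nfkb1, its usual partner, had 33.9, 33.0 and 33.4 CPM in IRE1fl and 31.3, 31.8 and 29.6 CPM in IRE1PKO. All its IRE1PKO values were the lower, by a small margin, with a log2 fold change of -0.12 (SE 0.08, edgeR adjusted p = 0.429). Rel, a subunit prominent in lymphocytes, had a log2 fold change of 0.45 (SE 0.26), with separate groups and 48 to 78 counts per library.

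Ratios between 2 members in the same library do not depend on how libraries are scaled. In all, 5 were formed after the values were seen, and all 5 separated the genotypes. Relb over Rela was 0.0575, 0.0496 and 0.0632 in IRE1fl and 0.104, 0.106 and 0.131 in IRE1PKO, 2.0-fold as high by the mean log ratio. Nfkb2 over Nfkb1 was 0.352, 0.278 and 0.281 in IRE1fl and 0.545, 0.448 and 0.462 in IRE1PKO, 1.6-fold as high. A two-sided exact permutation test gave p = 0.1 for each of the 5, and also after Benjamini-Hochberg adjustment, the smallest p that 3 libraries against 3 allow. The ratios therefore cannot pass the threshold of 0.05, and the members were chosen for them because they differed.

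Of the inhibitors, Tnfaip3 alone rose. Tnfaip3 (chromosome 10, 19000910 to 19015410) encodes a ubiquitin-editing enzyme that shuts off NF-kB signalling. It had 4.54, 3.40 and 4.12 CPM in IRE1fl and 8.88, 11.0 and 8.24 CPM in IRE1PKO. The lowest IRE1PKO value was well above the highest IRE1fl value. Tnfaip3 rose 2.33-fold, a log2 fold change of 1.22 (SE 0.18, edgeR adjusted p = 0.00216), and the call held without each library in turn, with adjusted p-values up to 0.0116.

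Nfkbia, the inhibitor IkB alpha, had 37.3, 42.3 and 36.3 CPM in IRE1fl and 31.1, 38.6 and 27.2 CPM in IRE1PKO. The groups overlapped through IRE1PKO 02, and the log2 fold change was -0.26 (SE 0.13, edgeR adjusted p = 0.23). Both genes held kappaB matches in the promoter stretches above. The count of Tnfaip3 over that of Nfkbia was 0.122, 0.0805 and 0.114 in IRE1fl and 0.286, 0.285 and 0.303 in IRE1PKO, 2.81-fold as high. Nfkbiz, an inducible nuclear IkB protein, had a log2 fold change of 0.37 (SE 0.14, edgeR adjusted p = 0.11) with separate groups. Bcl3, another nuclear IkB protein, had 0.15, and the cytoplasmic inhibitors Nfkbib and Nfkbie had -0.10 and -0.12.

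**Figure D3:**
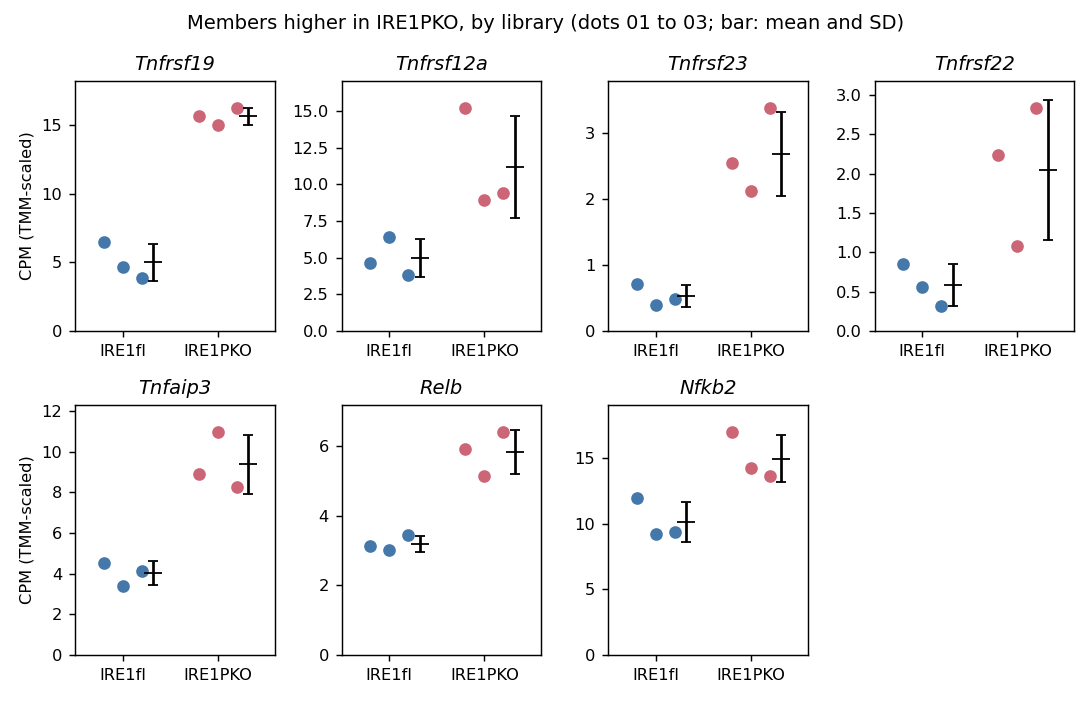
CPM of the 7 called members in the 3 IRE1fl (blue) and 3 IRE1PKO (red) libraries, in the order 01 to 03, with the mean and SD as black bars and axes from 0. In each panel every IRE1PKO library is above every IRE1fl library; Tnfrsf12a and Tnfrsf22 spread most within IRE1PKO.

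Libraries differed in their standing among the 7. IRE1fl 01 was the highest of its group for 5 of them, and IRE1PKO 02 was the lowest of its group for 5. Over the 41 members IRE1fl 01 was the highest of its group for 19 and IRE1PKO 02 the lowest for 19. Of the 7 calls, 3 held without each library in turn, those of Tnfrsf19, Tnfrsf23 and Tnfaip3. Without IRE1PKO 01 these were the only 3 members called, and without IRE1fl 03 there were 4.

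**Figure D4:**
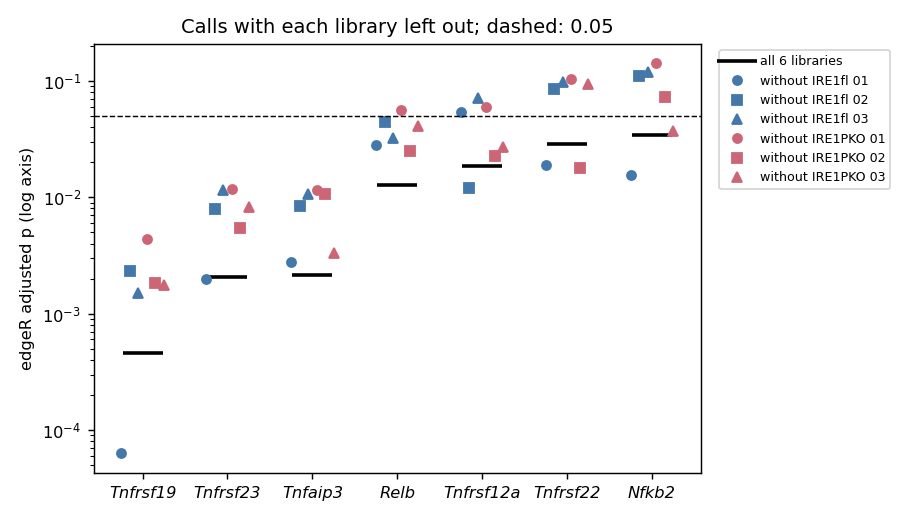
Adjusted p from edgeR on a log axis for the 7 called members, with all 6 libraries (black bars) and with each library left out (blue for IRE1fl, red for IRE1PKO). The points of Tnfrsf19, Tnfrsf23 and Tnfaip3 stay below the dashed line at 0.05, and each of the other 4 genes has at least 1 point above it.

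Per kilobase of exon, levels of the members spanned a wide range. With GENCODE exon lengths, Tnfrsf1a had 36.2 CPM per kilobase in IRE1fl, Nfkbia 24.0, Rela 18.4 and Tnfrsf1b 11.6. The receptors that rose were at 2.56 CPM per kilobase for Tnfrsf12a, 1.06 for Tnfrsf19, 0.138 for Tnfrsf22 and 0.135 for Tnfrsf23 in IRE1fl, and at 5.78, 3.29, 0.487 and 0.676 in IRE1PKO. Tnfsf10 was at 2.41 in IRE1fl and 2.22 in IRE1PKO, above both decoy receptors on this scale in either genotype. Relb was at 0.822 and 1.5, below Rela at 18.4 and 16.8. Of the 41 members, 10 had a mean under 1 CPM over all libraries and none of these was called. That mean takes in both genotypes, so a gene that rises can pass the limit by its rise. The called genes Tnfrsf22 and Tnfrsf23 had means of 0.583 and 0.534 CPM in IRE1fl, and 2.05 and 2.68 CPM in IRE1PKO.

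The 11 members under the count limit were 7 ligands and 4 receptors. Fasl, the ligand of Fas, had 5, 10 and 0 counts in IRE1fl and 6, 4 and 4 in IRE1PKO. Tnfsf15, an endothelial cytokine, had 21, 4 and 10 counts in IRE1fl and 4, 4 and 2 in IRE1PKO. Its IRE1PKO libraries were all the lower on the CPM scale, with means of 0.322 in IRE1fl and 0.0867 in IRE1PKO, although the counts of IRE1fl 02 and 2 IRE1PKO libraries were equal. Tnfrsf9, a T cell costimulator, had 0, 0 and 2 counts in IRE1fl and 8, 0 and 10 in IRE1PKO. Tnfsf8, Tnfsf9, Tnfsf4, Tnfsf11, Tnfsf18, Tnfrsf13c and Tnfrsf17 had at most 10 counts in any library. Tnfrsf8 had no count in any library, which allows up to 3 counts per library, or 0.0733 to 0.0851 CPM, as counting error only. None of the 11 was tested.

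Genes around the members were counted from lists chosen by function. Of 18 tested genes of the IKK complex and TNF receptor signalling, 1 (5.56%) fell and none rose. Over all tested genes 3.86% fell and 5.68% rose. The list's median log2 fold change was -0.01, or 0.06 with library totals as the only scaling. The gene that fell was Sharpin, a subunit of the linear ubiquitin ligase, with 29.8, 31.1 and 28.7 CPM in IRE1fl and 23.8, 22.1 and 24.0 CPM in IRE1PKO. Its groups were separate, with a log2 fold change of -0.36 (SE 0.09, edgeR adjusted p = 0.0294). Sharpin stayed past the threshold when IRE1PKO 03 was left out, and did not when any of the other libraries was (largest edgeR adjusted p = 0.112), nor with library totals as the only scaling (0.0853). Map3k14, the kinase NIK that starts processing of the Nfkb2 product, was looked up after its values were seen and had a log2 fold change of 0.32 (SE 0.17, edgeR adjusted p = 0.259).

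None of 13 tested negative regulators of NF-kB other than the members was called, with 2 higher and 1 lower at an unadjusted p under 0.05, 1 called by DESeq2 and none by limma-voom. Their median was 0.06, and it was -0.03 without IRE1PKO 03. Among them Tnip1, a partner of the Tnfaip3 product named after its values were seen, had 9.86, 10.4 and 10.5 CPM in IRE1fl and 13.2, 13.7 and 13.0 CPM in IRE1PKO. Its groups were separate, and the log2 fold change was 0.37 (SE 0.12, edgeR adjusted p = 0.0646). None of 13 death receptor signalling genes was called by edgeR, DESeq2 or limma-voom, with 1 higher and 1 lower at an unadjusted p under 0.05. Their median was 0.06, and it was -0.04 without IRE1PKO 03 and 0.03 without IRE1fl 01 or IRE1fl 02.

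Of 22 tested NF-kB target genes, 4 (18.2%) rose and none fell, beside 5.68% and 3.86% over all tested genes. The list's median was 0.32. DESeq2 called 7 higher and limma-voom 6, and both none lower; at an unadjusted p under 0.05, 8 were higher and none lower. Ccl2, which attracts monocytes, had 0.554, 0.17 and 0.701 CPM in IRE1fl and 2.72, 1.93 and 2.32 CPM in IRE1PKO, a log2 fold change of 2.28 (SE 0.43, edgeR adjusted p = 0.00767). Plau, the urokinase gene, had 1.27, 1.19 and 1.35 CPM in IRE1fl and 3.36, 3.83 and 3.13 CPM in IRE1PKO, a log2 fold change of 1.43 (SE 0.23, edgeR adjusted p = 0.00363). Both had separate groups and were called without each library in turn.

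The stress gene Gadd45b rose by a log2 value of 1.98 (SE 0.41, edgeR adjusted p = 0.014), which no longer passed when IRE1fl 02 or IRE1PKO 01 was left out (largest edgeR adjusted p = 0.0657). The chemokine Cxcl10, also an interferon target, rose by 1.11 (SE 0.28, edgeR adjusted p = 0.0377), which no longer passed when IRE1fl 02, IRE1fl 03, IRE1PKO 01 or IRE1PKO 02 was left out (largest 0.124). The other 18 tested target genes did not pass the edgeR test, and 16 of the 22 had a log2 fold change above 0. Below 0 were Mmp9 at -0.81, Il1b at -0.41, Cx3cl1 at -0.31, Junb at -0.14, Sod2 at -0.06 and Irf1 at -0.02. The list's median ran from 0.16 without IRE1PKO 02 to 0.58 without IRE1PKO 01. Of the 10 recruited macrophage markers, Gpnmb, Spp1 and Mmp12 rose as well, and the other 7 did not pass the test. At an unadjusted p under 0.05, 8 of the 10 were higher and none lower. DESeq2 called 5 of the 10 higher and limma-voom 3, and the list's median log2 fold change was 0.96. The part of recruited macrophages in these values was not tested.

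Of 8 tested TNF superfamily genes with other names, 1 (12.5%) rose and none fell, beside 5.68% and 3.86% over all tested genes. DESeq2 and limma-voom also called 1, and 1 was at an unadjusted p under 0.05. The median of the 8 was 0.45. That median was 0.28 without IRE1fl 02. Without the filter on low counts it was 0.17, but over 11 genes in place of 8. Eda2r, a receptor for an ectodysplasin isoform, had 2.83, 1.39 and 1.19 CPM in IRE1fl and 5.67, 3.5 and 3.81 CPM in IRE1PKO. The groups were separate, with a log2 fold change of 1.27 (SE 0.34, edgeR adjusted p = 0.0423). Eda2r stayed past the threshold when IRE1fl 01 was left out, and did not when any of the other libraries was (largest edgeR adjusted p = 0.164).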

How the data were processed

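Raw gene counts for the 6 libraries were deposited by the authors as 1 table. The submitters' processing notes name the build mm10; aligner, counter and annotation: not given in the sources used here. Among values of 1 to 8, even counts were 2.58 to 3.19 times as frequent as odd ones, so both mates of a read pair may have been counted. Floors and intervals cover counting error only. Date-like names in place of gene symbols took 0.178% of counts and stayed in.

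Genes were filtered with filterByExpr, leaving 14954. Scaling was by TMM factors, and the test was that of edgeR 4.0.16 (R 4.3.3; robust quasi-likelihood, two-sided, Benjamini-Hochberg). CPM uses the TMM-scaled totals of the tested genes, and SE is the log2 fold change over the root of F. Alternatives used limma 3.58.1 and DESeq2 1.42.0. The fit was tested on simulated data. The labels name no separate animals, so the p-values reflect only how these libraries spread, which may be technical. Within a group, chi-square values per gene between library pairs were 30.7 to 68.5, so no library was a copy.

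The members and lists were chosen with earlier results of these data known. Full values are given for each called member and for Tnf, Fas, Tnfrsf1a, Tnfrsf1b, Tnfsf10, Tnfrsf10b, Tnfsf13b, Rela, Nfkb1 and Nfkbia. From each other list up to 4 called genes with the smallest p are named. Of 188 listed symbols 1 was found under another name and 2 were not found. Positions and promoters are RefSeq's (GRCm38.p6), and exon lengths and transcripts are from GENCODE M21.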

Additional observations from a re-analysis of the deposited data

How the results depend on the processing

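The count of 7 members called higher was also found with DESeq2 size factors, without the filter on low counts, at a mean of 1 CPM or more, with the DESeq2 Wald test and with halved counts, which were added after the data were seen. The mean of 1 CPM was taken over both genotypes, and Tnfrsf22 and Tnfrsf23 passed that limit through their IRE1PKO values. With library totals as the only scaling there were 8, Tnfrsf1a being added, and with limma-voom 6, without Tnfrsf22. No alternative called a member lower. With each library left out in turn, 3 to 6 members were called higher, and 653 to 1484 genes of the whole table in place of 1426. Library totals moved the higher share of all calls from 59.5% to 73.4% and the median of all genes from -0.0014 to 0.07. The ligand median of -0.09 was 0.02 without IRE1fl 03 or IRE1PKO 01 and -0.14 without IRE1fl 02. It was -0.03 without IRE1PKO 02, -0.21 without IRE1PKO 03 and -0.01 with library totals. With halved counts or at a mean of 1 CPM or more it was -0.23. At a mean of 1 CPM or more only 2 of the 6 ligands were left, Tnfsf10 and Tnfsf12, so that median is over fewer genes. The cause of the other shifts was not tested. The marker sums without 1 marker were also added after the data were seen. With the replicate number as a block, 7 members and 1865 genes were called. Deviations of same-numbered libraries from their group means had correlations of 0.102, -0.026 and 0.155. The numbers were not treated as pairs, since 1 of the 3 values was under 0.1. Libraries 01 and 03 correlated best with their own number and the 02 libraries did not, a hint from the data and not from the design. No named gene that was called changed direction in any of these settings. Tnf had 14 to 24 counts per library and Tnfrsf10b 11 to 49, with SEs of 0.46 and 0.45, and what deeper sequencing would give was not tested.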

Other observations

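Toll-like and interleukin-1 receptor signalling also feeds into NF-kB. Of 18 tested genes of that list, 3 (16.7%) rose and 1 (5.56%) fell, beside 5.68% and 3.86% over all tested genes. The list's median log2 fold change was 0.18. That median was 0.095 without IRE1fl 02 and 0.12 without IRE1PKO 03. Tlr5, the flagellin receptor, had 14.5, 12.2 and 10.8 CPM in IRE1fl and 22.8, 24.1 and 30.1 CPM in IRE1PKO. Its groups were separate, with a log2 fold change of 1.03 (SE 0.14, edgeR adjusted p = 0.00148). Il1rap, the accessory chain of the interleukin-1 receptor, had 192.5, 174.4 and 199.5 CPM in IRE1fl and 118.1, 129.8 and 128.4 CPM in IRE1PKO. It was lower in every IRE1PKO library, with a log2 fold change of -0.59 (SE 0.09, edgeR adjusted p = 0.00277). Both calls held without each library in turn. Cd14, a coreceptor for lipopolysaccharide found on macrophages, rose by 1.01 (SE 0.21, edgeR adjusted p = 0.0112), and Tlr2, a lipopeptide receptor, by 0.91 (SE 0.19, edgeR adjusted p = 0.014). Cd14 no longer passed when IRE1PKO 01 or IRE1PKO 02 was left out (largest edgeR adjusted p = 0.0565). Tlr2 no longer passed when IRE1fl 02 or IRE1PKO 02 was left out (largest 0.0614). The summed level of the recruited macrophage markers, 3 of 10 of which rose, was higher in IRE1PKO, and its part in these values was not tested.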
